A study of Mus musculus with 3 samples.

Results

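DLX3 bound the genome of suprabasal keratinocytes in 527 dense chains of peaks that shared no base with H3K4me3, and chains with many peaks stood beside or inside Egfr, Lgr4, Cebpb, Perp, Runx1 and the Dlx3-Dlx4 locus itself. A chain is a run of at least 3 DLX3 peaks, none sharing a base with an H3K4me3 peak, in which the centres of neighbours lie 12500 bp or less apart. Of 18087 DLX3 peaks, 10472 shared no base with any of 16735 H3K4me3 peaks and are called unmarked here. The 527 chains held 1897 of these unmarked peaks (18.1%, 95% Wilson interval 17.4 to 18.9, which covers counting error only). Another 3 chains, wholly within the first 3.5 Mb of a chromosome, were left out, and 8561 unmarked peaks belonged to no chain.

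The data are from ChIP-seq, the sequencing of DNA that is crosslinked to a protein and pulled down with an antibody against it. Suprabasal keratinocytes, which have left the basal layer of the epidermis and are differentiating, came from wild type mice of the BALB/c strain. The sample labels call the animals adult, whereas the text of the series speaks of neonatal epidermis, and the age was not settled here. Each of the antibodies against DLX3 and against H3K4me3 gave 1 library with 1 peak list, and nonspecific immunoglobulin (IgG) gave one more library, which was not analysed here. With 1 library per antibody there is no replicate spread and no test between groups. The chains were chosen on measured positions in both lists, so their number, density and lack of H3K4me3 are a description and not a finding. Peak lists hold no transcripts, so the labelled cell type could be set only against which marker genes lie near the chains, described with the gene lists.

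DLX3 is a homeobox transcription factor with known roles in epidermal differentiation, hair and tooth formation. H3K4me3, trimethylation of lysine 4 of histone H3, marks promoters that are active or poised, and distal enhancers usually carry little of it. Groups of closely spaced binding sites away from promoters are often studied as clustered enhancers, which can regulate genes far away on the same chromosome. The nearest gene is therefore a positional label here and not an assigned target.

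Few chain peaks reached a start site of the RefSeq promoter table of GRCm38.p6, the assembly known as mm10. Those that did show what a chain peak can cover. The table holds a start site for 17492 of the 21887 coding genes, so starts of the rest are missed. In it, 46 windows of 250 bases upstream of a start site shared at least 1 base with a chain peak. They belonged to 41 genes in 41 chains, of which 6 were protein-coding and 35 were long noncoding RNA genes, and 30 windows lay wholly inside a peak. The 6 coding genes were S100a3, Kat2b, Epgn, Sp2, Mt4 and Sprr1a. Sequences of 5 of them are shown because each start site lies under a chain peak, which by the rule shares no base with H3K4me3. Sp2 is left out because its peak took in 68 of the 250 bases. Capitals mark matches to any of 5 letter patterns searched on both strands.

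The 5 windows are given 5′ to 3′ on the strand of the gene and end 1 base before the start site. They are Sprr1a (chr3:92485882-92486131, minus strand), a cornified envelope precursor gene, and Epgn (chr5:91027267-91027516, plus strand), a gene for an EGF receptor ligand. The others are Mt4 (chr8:94136954-94137203, plus strand), a metallothionein gene of stratified epithelia, S100a3 (chr3:90586702-90586951, plus strand), a calcium-binding protein gene of hair cuticle, and Kat2b (chr17:53583876-53584125, plus strand), a histone acetyltransferase gene.
Sprr1a: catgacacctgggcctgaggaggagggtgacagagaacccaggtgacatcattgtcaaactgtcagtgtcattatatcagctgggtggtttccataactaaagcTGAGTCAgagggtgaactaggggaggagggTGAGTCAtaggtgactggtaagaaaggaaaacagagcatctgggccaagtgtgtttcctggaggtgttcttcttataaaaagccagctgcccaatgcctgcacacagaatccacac
Epgn: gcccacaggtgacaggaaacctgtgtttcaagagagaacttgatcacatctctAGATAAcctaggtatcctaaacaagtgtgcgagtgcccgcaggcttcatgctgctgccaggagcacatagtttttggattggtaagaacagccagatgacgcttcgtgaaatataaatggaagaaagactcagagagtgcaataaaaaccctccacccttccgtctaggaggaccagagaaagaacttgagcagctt
Mt4: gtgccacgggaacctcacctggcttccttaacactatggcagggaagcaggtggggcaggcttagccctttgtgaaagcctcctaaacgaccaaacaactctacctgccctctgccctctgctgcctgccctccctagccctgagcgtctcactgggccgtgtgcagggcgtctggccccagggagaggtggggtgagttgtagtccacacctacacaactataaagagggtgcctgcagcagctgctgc
S100a3: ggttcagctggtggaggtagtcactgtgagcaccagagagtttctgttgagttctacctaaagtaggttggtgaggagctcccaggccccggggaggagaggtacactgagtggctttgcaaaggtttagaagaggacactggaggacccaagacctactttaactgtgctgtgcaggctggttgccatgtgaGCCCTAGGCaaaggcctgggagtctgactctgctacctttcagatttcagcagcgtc
Kat2b: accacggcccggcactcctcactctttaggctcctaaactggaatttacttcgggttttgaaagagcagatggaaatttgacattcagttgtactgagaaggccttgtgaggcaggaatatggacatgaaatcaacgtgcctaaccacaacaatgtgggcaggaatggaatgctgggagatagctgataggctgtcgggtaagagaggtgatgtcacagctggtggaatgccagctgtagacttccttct

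The Sprr1a window held TGANTCA, the core recognised by AP-1, at 2 places, and it lay wholly inside a DLX3 peak of score 51.87, 84929 bp from the nearest H3K4me3 peak. At Epgn the window carried 1 copy of AGATAA, the GATA core, inside a peak of score 101.47 that stood 45766 bp from H3K4me3. The S100a3 window, which shared 218 bases with a peak of score 248.07, held 1 match to the AP-2 pattern GCCNNNGGC, and H3K4me3 lay 12441 bp away. No pattern matched in the windows of Mt4 (peak score 61.5, 33999 bp from H3K4me3) and Kat2b (135.89, 14333 bp). The Kat2b start site shown lies inside the gene span, which begins at chr17:53566774 and has H3K4me3 within 1 kb of an end. The score is the authors' own value for each peak and is used here only within the DLX3 list.

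Across all 46 windows the homeodomain core TAATT was present in 12 (26.1%), against 25% of the 32814 windows of the whole table. TGANTCA stood in 6 (13.0%) against 6.75%, GCCNNNGGC in 8 (17.4%) against 13.7%, AGATAA in 4 (8.70%) against 9.99%, and GGGNGTGG, a Krüppel-like factor pattern, in 8 (17.4%) against 15.9%. A window counted once per pattern, so overlapping matches within a window add nothing. Windows of the same gene can overlap, though, and a site they share then counts in each. This was so for GCCNNNGGC at Gm41638 and TAATT at Gm34004, so the 46 windows are not independent. These are counts of letters in few windows, and they say nothing about which factor sat on them.

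Most chains were short. There were 342 chains of 3 peaks, 115 of 4, 41 of 5, 14 of 6, 7 of 7 and 5 of 8, followed by single chains of 9, 10 and 14 peaks. By the same linking distance, 6179 unmarked peaks stood alone and 1191 runs stopped at 2 peaks. The widest step inside a chain was 12484 bp and the narrowest step from a chain to the next unmarked peak was 12604 bp, on either side of the linking distance. Chain length had a median of 12749 bp (quartiles 8923 and 18088) and ran from 1610 to 51817 bp. Peaks covered a median of 18.1% of a chain's length, from 6.15% to 92.6%.

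**Figure D1:**
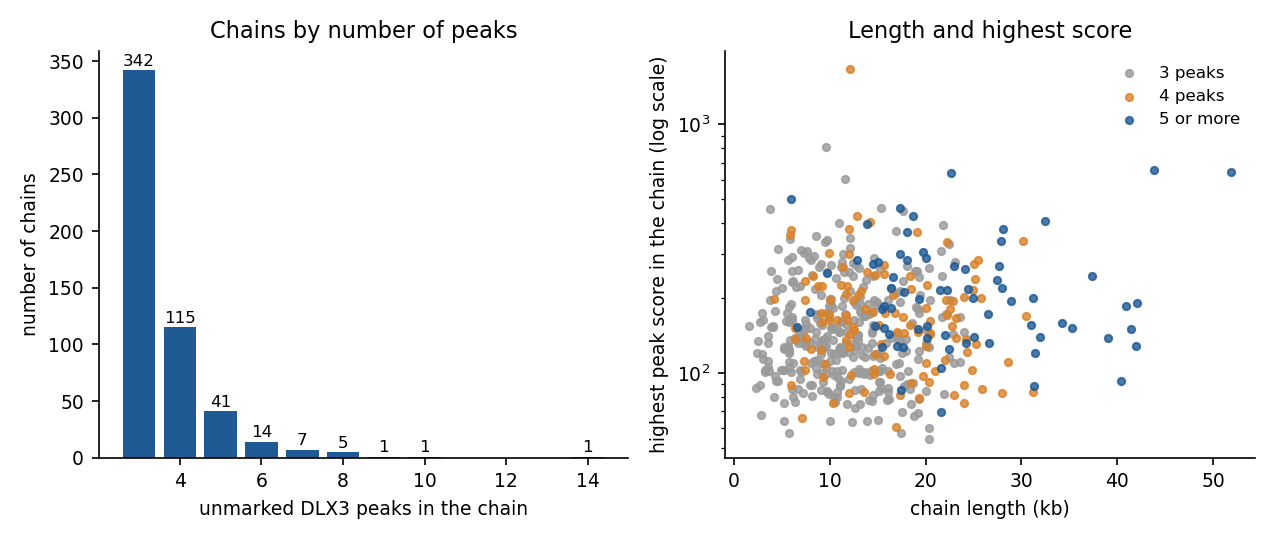
The bars count chains by their number of unmarked DLX3 peaks, and the points plot each chain's length in kb against its highest peak score on a log scale, coloured by number of peaks. The 342 chains of 3 peaks outnumber all others, and the highest score (1667.44) belongs to a chain of 4 peaks about 12 kb long.

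Chain peaks scored between the other unmarked peaks and the H3K4me3-sharing ones. Their median score was 84.5 (quartiles 63.7 and 127.8), beside 75.3 (60.4 and 107.7) for the 8561 other unmarked peaks and 93.8 (69.1 and 142.1) for the 7615 peaks that shared a base with H3K4me3. These distributions overlapped over most of their range. Median widths followed the same order, at 635, 580 and 687 bp. The median score of a single chain had a median of 83.6 over chains of 3 peaks, 85.4 over chains of 4 and 88.5 over chains of 5 or more. The highest peak of a chain exceeded the chain's median score by a median factor of 1.59, and in 305 chains (57.9%, interval 53.6 to 62.0) it was the first or last peak. In a chain of 3 peaks all but the middle one are first or last, and 342 chains had 3 peaks. The share is therefore high by the chain sizes alone, and no preference for the edges is read from it.

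**Figure D2:**
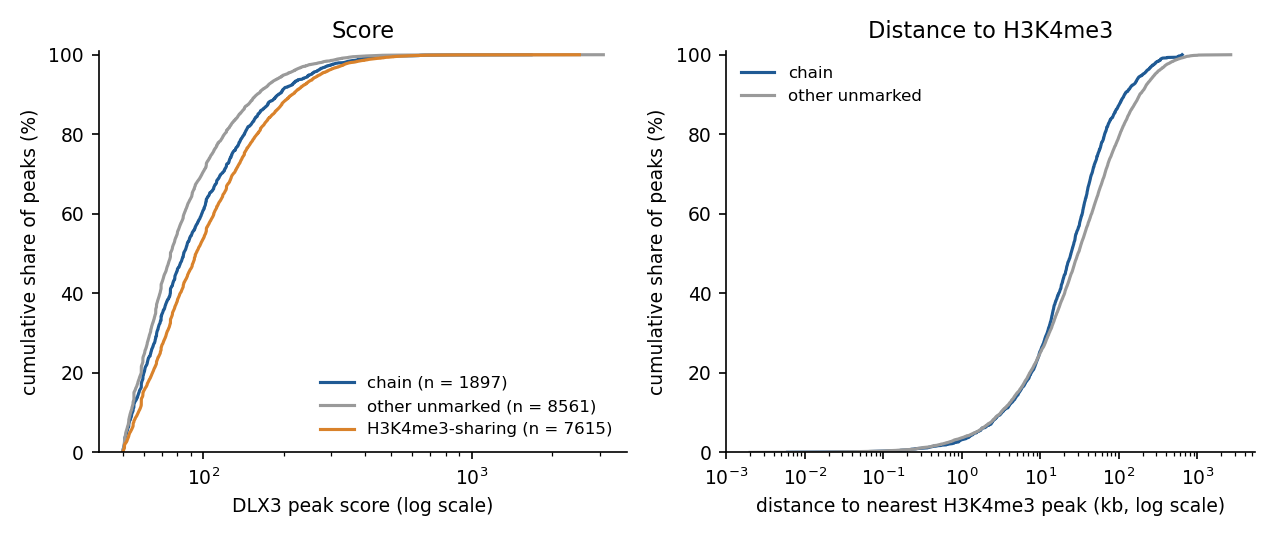
Cumulative share of DLX3 peaks by score (left) and of unmarked peaks by distance to the nearest H3K4me3 peak in kb (right), both on log scales, for chain peaks, other unmarked peaks and, by score, H3K4me3-sharing peaks. The score curve of the chain peaks (median 84.5) runs between those of the other unmarked peaks (75.3) and the H3K4me3-sharing peaks (93.8), and the distance curves run together up to about 10 kb.

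Chain peaks lay close to H3K4me3 about as often as other unmarked peaks did. Within 2 kb of an H3K4me3 peak lay 6.33% of chain peaks and 6.63% of other unmarked peaks, and within 10 kb 25.5% and 25.2%. The median distance was 24418 bp for chain peaks and 30071 bp for the others. An H3K4me3 peak stood between the first and last base of 64 chains (12.1%), and in 42 chains (7.97%) a DLX3 peak that shared it lay there too. From a chain peak to the nearest coding start site in the promoter table the median was 43102 bp, close to the 45305 bp of other unmarked peaks. H3K4me3-sharing peaks had a median of 261 bp. Coding genes with no start site in that table, such as Hspa8 and Perp, are skipped, so a true start can lie closer than these distances say.

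Gene bodies held 244 of the 527 chains by their centre (46.3%, interval 42.1 to 50.6). In 206 chains every peak lay inside a coding gene span, in 258 none did, and 63 had peaks on both sides of a gene's edge. Chains centred outside genes stood a median of 28764 bp from the nearest coding span. The RefSeq gene table used here gives spans without exons, so exons and introns were not separated. As a share of unmarked peaks, those in chains ranged on the autosomes from 12.2% on chromosome 18 and 12.9% on chromosome 1 to 21.9% on chromosome 2. On chromosome X none of 75 unmarked peaks was in a chain.

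The nearest coding genes numbered 478, which is 2.18% of the 21887 coding genes compared. H3K4me3 lay within 1 kb of an end of the gene span at 403 of the 478 (84.3%, interval 80.8 to 87.3), against 59.3% of all coding genes. With the start sites of the promoter table in place of span ends, the shares were 321 of 362 (88.7%) and 60.6%. An H3K4me3-sharing DLX3 peak stood within 1 kb of an end at 222 of the 478 (46.4%, interval 42.0 to 50.9), against 26.4% of all coding genes. Among genes with H3K4me3 at an end, these were 55.1% of the 403 nearest genes (50.2 to 59.9) and 44.1% of the 12585 others (43.3 to 45.0). Genes nearest to chains were also long, with a median span of 53416 bp against 17169 bp for all coding genes, and the part of gene length in these shares was not tested.

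Chains of each size gave similar shares, with overlapping intervals. H3K4me3 at a gene end was found for 268 of 321 nearest genes of 3-peak chains (83.5%), 95 of 111 for 4 peaks (85.6%) and 59 of 68 for 5 or more (86.8%). The shares with an H3K4me3-sharing DLX3 peak were 45.2%, 47.7% and 45.6%.

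**Figure D3:**
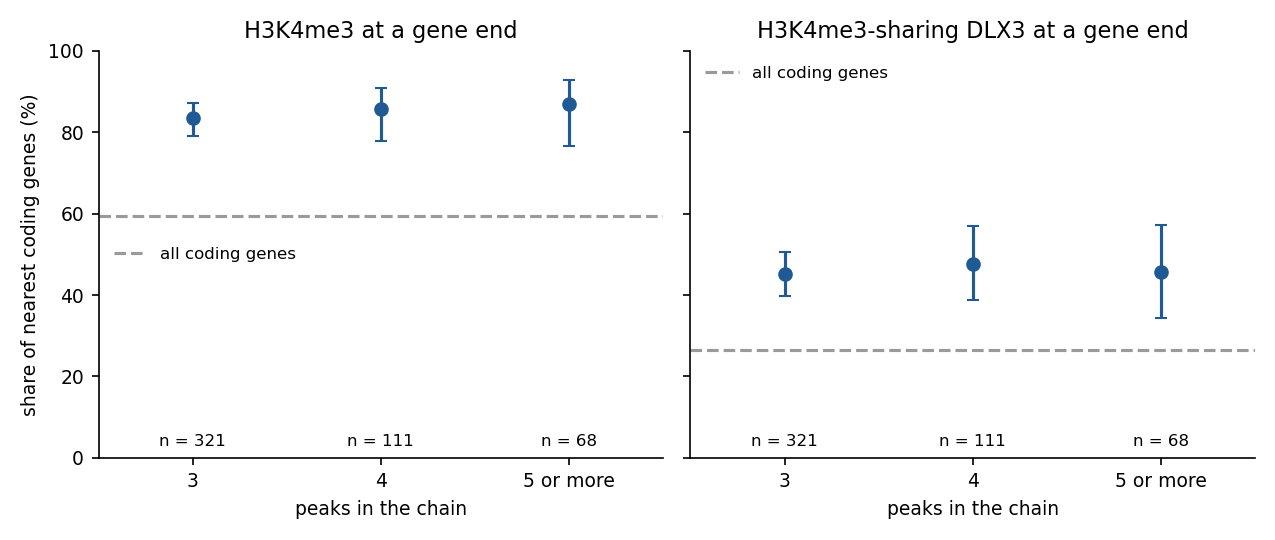
Share of nearest coding genes, in percent, with H3K4me3 (left) or an H3K4me3-sharing DLX3 peak (right) within 1 kb of a gene end, by the number of peaks in the chain. Points carry 95% Wilson intervals, the dashed lines show all coding genes (59.3% and 26.4%), and the points lie above the lines in each size class.

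The chain with the most peaks lay at Pebp4, a phosphatidylethanolamine-binding protein gene, on chr14:70017209-70069025. Its 14 peaks scored, from left to right, 52.67, 69.53, 112.08, 432.53, 143.55, 85.87, 128.44, 640.46, 86.22, 55.4, 62.31, 101.61, 70.91 and 186.35. A pair of peaks stood well above the rest, and 10 of the 14 were inside the Pebp4 span, which had no H3K4me3 at its ends. The right edge of the chain was 8292 bp from Egr3, an immediate-early zinc finger factor gene, and 4730 bp from an H3K4me3 peak.

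Some of the largest chains lay inside or near receptor genes of keratinocyte growth signalling. Egfr, the receptor for EGF family ligands, carried 9 peaks within its span on chr11:16783185-16811042, with scores of 52.67, 76.85, 69.5, 76.85, 112.08, 339.47, 93.02, 60.04 and 58.65. A single peak stood well above the other 8. An H3K4me3 peak over the Egfr start site lay 27581 bp from that chain. A second chain of 3 peaks, up to 98.63, also lay within Egfr. Lgr4, an R-spondin receptor that strengthens Wnt signalling, held 8 peaks on chr2:109952802-109971436, scored 114.95, 50.38, 54.71, 71.43, 428.7, 215.24, 109.28 and 127.21, with the highest pair side by side right of the centre. Ror2, a receptor for Wnt5a, lay 9266 bp from a chain of 7 peaks with a top score of 216.4.

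The Dlx3-Dlx4 locus, which encodes the factor itself and its neighbouring paralogue, had a pair of chains. One of 3 peaks (chr11:95126219-95139222, top score 265.43) lay between the genes, 923 bp from the Dlx3 span and 1225 bp from that of Dlx4. The other, of 7 peaks on chr11:95153117-95190463, began 6823 bp beyond Dlx4 and 27821 bp from Dlx3, and its scores were 88.44, 170.35, 176.24, 96.64, 124.54, 183.67 and 245.21. Its lowest peak was above the median of all chain peaks. No unmarked DLX3 peak lay inside either gene span.

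**Figure D4:**
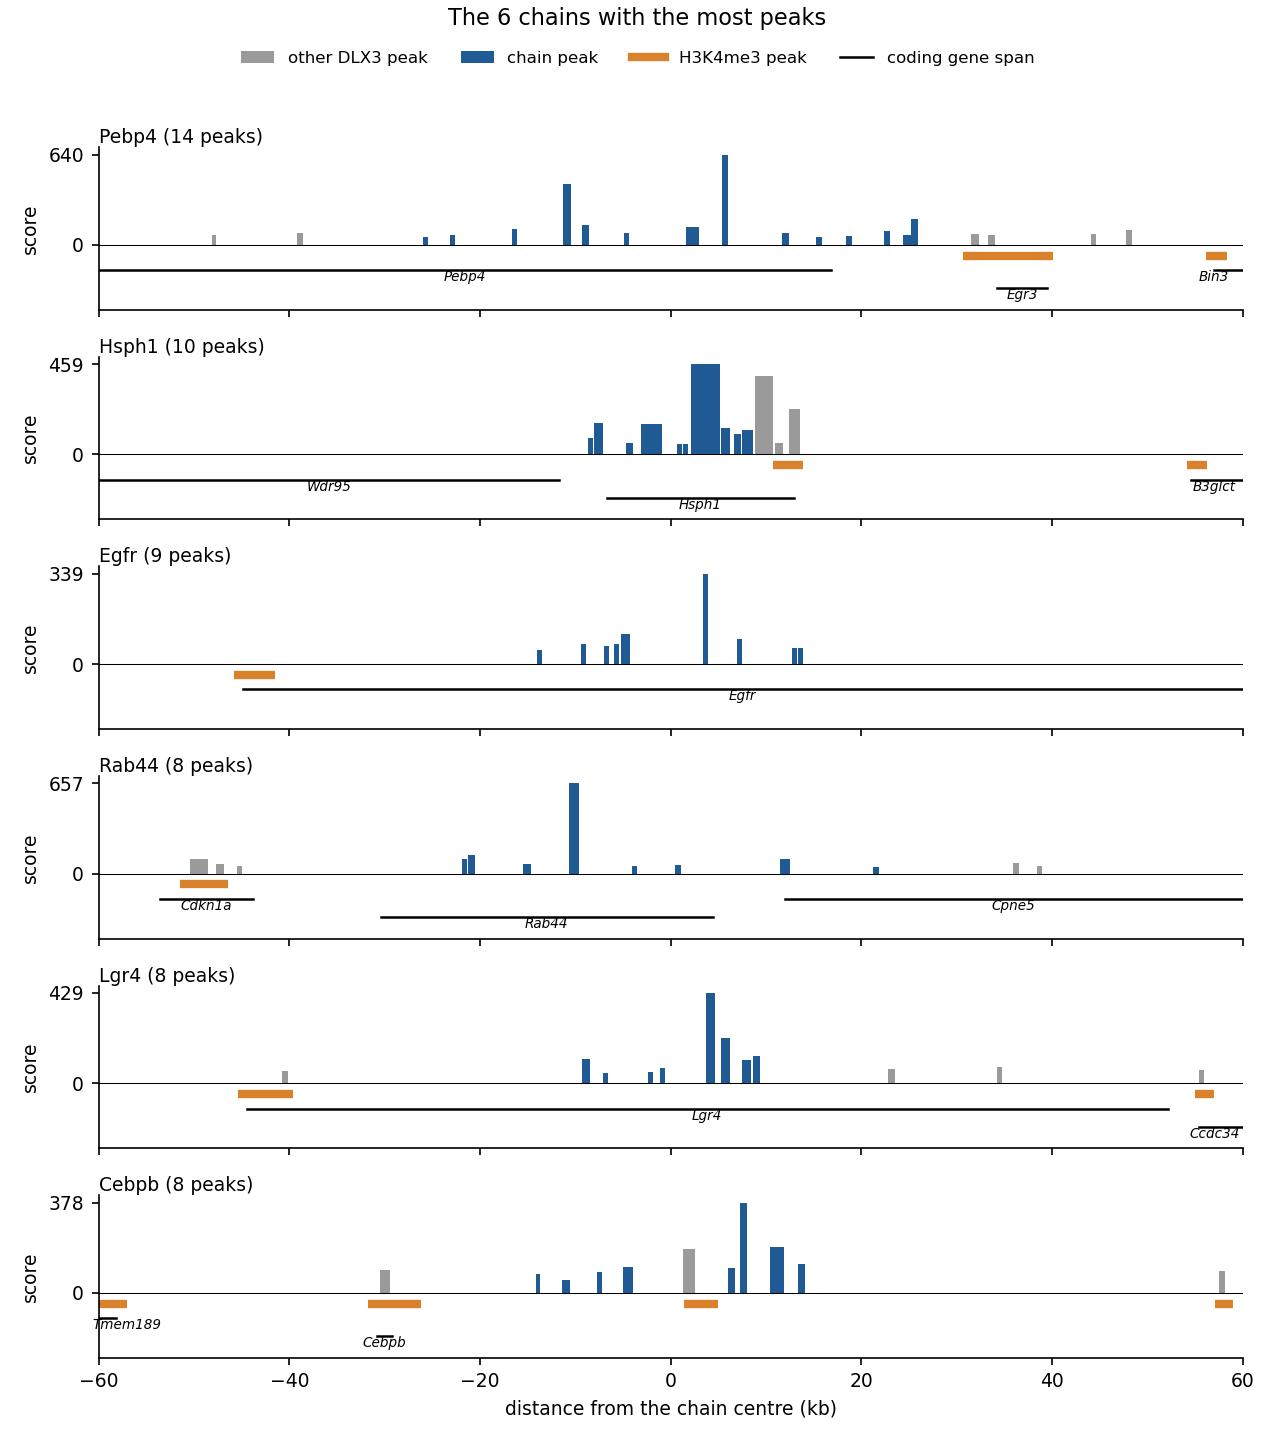
Maps of the 6 chains with the most peaks (of chains with equal numbers, those with the higher top score), centred on each chain, with distance in kb on the horizontal axis. Bars give peak position and score (blue for chain peaks, grey for other DLX3 peaks), orange bars are H3K4me3 peaks and black lines are coding gene spans. Peaks of neighbouring chains are not drawn, among them the second chain within Egfr and another chain nearest to Cebpb. At Egfr and Lgr4 the blue peaks lie within the gene and away from the H3K4me3 peak at its start. At Hsph1 most of the chain's own length is covered by peaks.

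Transcription factor genes of the keratinocyte were often close to a chain. Of 56 on a list of such factors, 18 (32.1%) lay within 50 kb of a chain, against 3.99% of all coding genes, and 19 were the nearest gene of a chain. This list and those below were chosen with earlier results of these data known, so their shares are descriptions. Cebpb, a bZIP factor of keratinocyte differentiation, had 3 chains with 16 peaks over 94115 bp. The closest, of 8 peaks, began 15192 bp from the gene on chr2:167705624-167733723 and scored 78.21, 54.74, 86.94, 109.98, 103.48, 378.2, 193.69 and 121.89, with the higher values on the side away from Cebpb. An H3K4me3-sharing DLX3 peak stood in the middle of that chain, as the chain maps show.

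Runx1, a factor of hair follicle stem cells, held 7 peaks within its span (chr16:92612786-92631998), of which the highest scored 149.61, and was nearest to 4 more peaks 163761 bp away. Gata3, a factor of epidermal and follicle lineages, had 3 chains with 14 peaks over 282318 bp, and the nearest began 21432 bp away with a top score of 270.46. Msx2, a homeobox gene of hair follicles, also had 3 chains, with 9 peaks over 99701 bp and none closer than 113188 bp. Barx2, another homeobox gene, held a chain of 4 peaks within its span (chr9:31849083-31862357, top score 214.14) and was also the nearest coding gene of a 6-peak chain, with a top score of 218.93, that lay 159013 bp off. Only position was measured here, so these distances carry no link between chain and gene.

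Jun, an AP-1 subunit gene, was nearest to a chain of 3 peaks, 16009 bp away on chr4:95068231-95077853. Its scores were 809.39, 228.18 and 244.64, each above the upper quartile of chain peaks. The middle peak of that chain covered the start of Junos, a noncoding RNA gene annotated beside Jun.

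Trp63, which encodes the master regulator of stratified epithelia p63, was a modest case. Its span held 8 unmarked peaks, of which 3 formed a chain (chr16:25843414-25850267) with scores of 102.51, 53.16 and 55.06. A stronger chain of 6 peaks, scored 173.82, 161.87, 243.67, 50.45, 73.31 and 79.22, lay 49960 bp beyond the gene and 597 bp from P3h2, a collagen prolyl hydroxylase gene that was its nearest gene. No H3K4me3 peak stood at either end of the Trp63 span. Span ends miss start sites within a gene, so this does not describe its inner promoters.

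Of the nearest coding genes, 8 had 3 or more chains each. Tle3, a Groucho-family corepressor gene, had 4, with 14 peaks over 325431 bp, Ets2, an ETS factor gene, had 16 peaks over 209251 bp in 3 chains, and Gse1 had 12 over 221431 bp. Kif26a, a kinesin family gene, had 12 peaks over 123721 bp, and Zfp703, a zinc finger corepressor gene, had 11 over 155551 bp. In all, 40 genes were nearest to more than 1 chain, and 117 chains (22.2%, interval 18.9 to 25.9) had another within 100 kb.

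Adhesion and cytoskeletal genes followed. Of 42 genes of desmosomes, adherens and tight junctions, 9 (21.4%) were within 50 kb of a chain. The comparison for this and each list below is the 3.99% of all coding genes. These 42 genes often had H3K4me3 at an end (95.2%, all coding genes 59.3%) and were long (median 30010 bp, all 17169 bp). Lists differed in both traits (keratins 40.9% and 6964 bp), and the part of either trait in the shares was not tested. Perp, a desmosomal membrane protein gene, lay 1713 bp from 6 peaks (chr10:18858786-18878784) scored 88.07, 143.12, 53.89, 288.85, 85.39 and 58.65, with 1 peak well above the rest. Dsg2, a desmosomal cadherin gene, had 6 peaks 10017 bp away, the highest at 181.36. Inside Nectin1, a cell adhesion gene, 5 peaks reached 139.03, and 3 between Cldn4 and Cldn3, tight junction claudin genes, reached 189.43. Cdh1 (E-cadherin), Dsp (desmoplakin), Pkp1, Cldn1 and Afdn made up the rest of the 9.

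Of 43 genes of cell matrix contacts and the cytoskeleton, 14 (32.6%) were within 50 kb. Myh9, nonmuscle myosin heavy chain, held 5 peaks scored 128.76, 110.38, 65.5, 142.14 and 262.97. Tns4, a tensin gene, held 4 between 78.22 and 112.08, and Actn4, an alpha-actinin gene, held 3 of 219.77, 66.38 and 268.04.

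Keratins gave the highest share of any list, 20 of 44 (45.5%), but clustered genes share chains: only 7 chains stood behind the count and 4 keratins were nearest genes. Krt80, a type II keratin gene of differentiating epithelia, had 7 peaks on chr15:101354091-101385088, 2 of them inside a coding span, scored 112.08, 52.18, 75.33, 156.29, 143.79, 132.89 and 121.89. Another chain of 4 peaks, up to 224.27, lay 9484 bp from Krt80. Krt78, another type II keratin gene, held 5 peaks up to 285.88. The chain at Krt32, a hair keratin gene, opened with a peak of 340.68 and lay between Krt31 and Krt35. The 3 peaks at a distance of 7750 bp from Krt14, the basal type I keratin gene, scored 56.86, 81.29 and 131.91.

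Of 50 genes of the cornified envelope and lipid barrier, 8 (16.0%) were within 50 kb, and they shared 6 chains. Scel (sciellin, a cornified envelope component) held most of a 6-peak chain with a top of 119.85, and Pnpla1, a lipase-family gene needed for barrier ceramides, most of a 4-peak chain with a top of 143.0. The chain at Sprr1a, whose start site sequence is printed above, scored 51.87, 75.08 and 137.29, so the peak over the start site was its lowest. At 11976 bp from Padi1, a protein deiminase gene, 3 peaks scored 79.69, 54.09 and 71.73, all below the median of chain peaks.

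In the EGF receptor and MAPK feedback list, 9 of 38 (23.7%) were within 50 kb. Besides Egfr, these took in the ligand genes Areg, Epgn, Ereg and Tgfa, the feedback inhibitor genes Errfi1 and Lrig1, and Braf and Dusp10. The 3 peaks at Errfi1 scored 71.73, 335.16 and 160.39, and 3 others up to 110.36 lay 84223 bp away. Dusp6 and Spry2, genes of MAPK pathway inhibitors, were nearest to chains 120023 and 207192 bp away, outside the 50 kb. Dusp16, a MAPK phosphatase gene that was not on the list, had 7 peaks (chr6:134794058-134826531) scored 83.54, 407.96, 351.91, 165.46, 196.82, 162.19 and 100.09, of which 6 were above 100.

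In the list for Notch, Wnt, BMP, TGF-beta and Hippo signalling, 12 of 60 (20%) lay within 50 kb, among them Notch1, Notch2, Jag1, Hes1, Smad2, Smad6, Smad7, Tead1 and Wwtr1. Tgfa, an EGF receptor ligand gene, stood on this list as well as on the last and is counted in both. Notch2, a Notch receptor gene, held 3 peaks of 57.52, 299.79 and 55.06. Wwtr1, which encodes the Hippo effector TAZ, held 4 of 54.1, 80.59, 195.29 and 61.86. Lef1, a Wnt pathway factor gene, was nearest to a chain 166541 bp away.

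Shares for inflammatory and protease genes were near the 3.99% of all coding genes, but they rest on few genes and have wide intervals. Among 35 matched genes on the list for cytokine and STAT3 signalling, 2 were within 50 kb (5.71%, interval 1.58 to 18.6). They were Nfkb1, an NF-kB subunit gene, and Socs3, an inhibitor of cytokine signalling. Timp3, a metalloproteinase inhibitor gene, was the single case of 20 serpin and protease genes (5%, interval 0.888 to 23.6), with 4 peaks up to 303.45.

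The marker lists of the labelled cells and of others are short, so their shares are imprecise. Of 9 suprabasal markers 2 (22.2%, Krtdap and Sbsn, which share 1 chain) were within 50 kb, against 3.99% of all coding genes. Of 8 basal markers 3 were (37.5%, Krt14, Krt15 and Trp63). Krt1, Krt10, Lor, Ivl and Flg, the defining suprabasal genes, were not. Of 8 hair follicle markers, Krt17 and Krt79 were. None of 8 fibroblast, 8 immune and 6 neuron markers was within 50 kb. Mitf was the only one of 8 melanocyte markers, with 4 peaks of 174.0, 100.46, 102.24 and 124.46 inside the gene, and of 7 endothelial markers Flt1 and Pecam1 had chains in or across their spans, with tops of 84.12 and 138.07. Whether other cell types contributed to these chains was not tested.

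**Figure D5:**
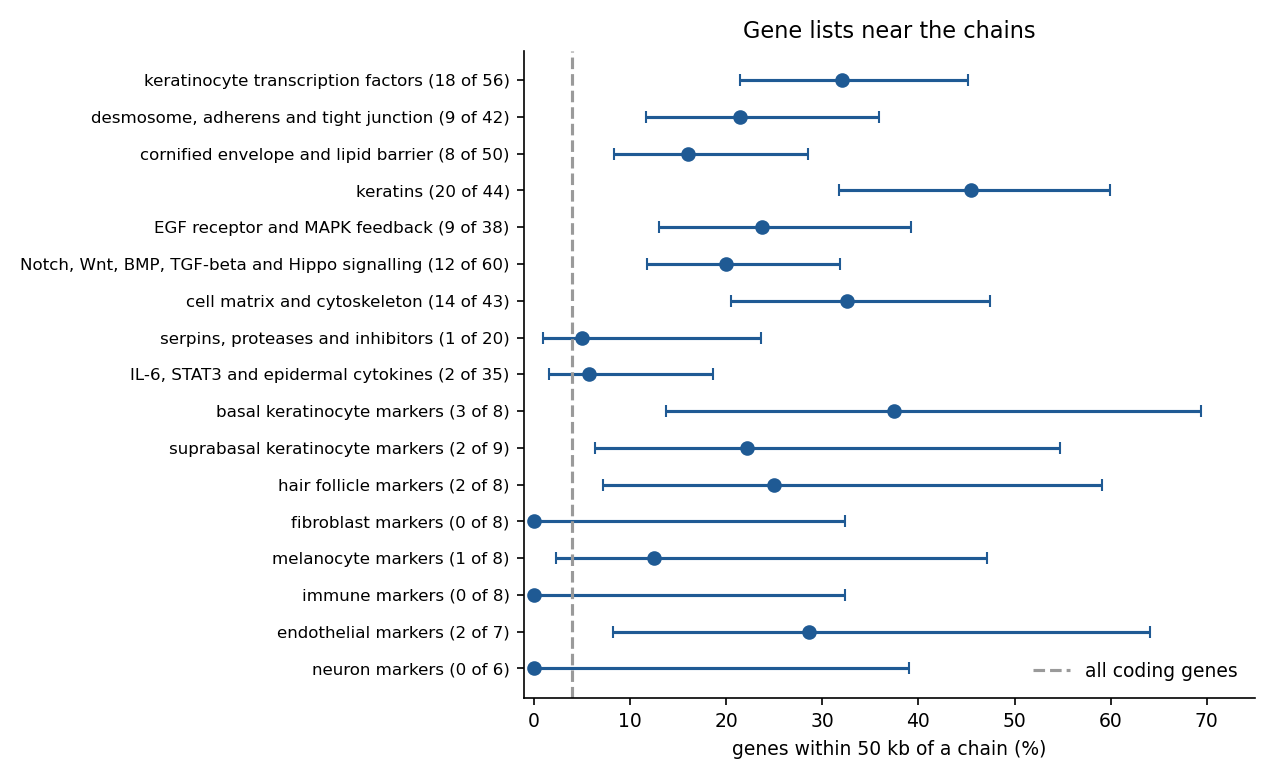
Share of each gene list, in percent, within 50 kb of a chain, with 95% Wilson intervals and counts in the labels. The dashed line marks all coding genes (3.99%). The keratins (45.5%), the cell matrix list (32.6%) and the transcription factors (32.1%) lie far to its right, and the protease and cytokine lists lie near it. Lists were chosen with earlier results of these data known, and the keratins within 50 kb share 7 chains. The intervals treat genes as independent and are no test.

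Among the genes named for their peak number or score were 3 chaperone genes whose chains were densely covered by peaks. They are grouped here after their values were seen and belong to no list, and chains at other genes were covered as densely, such as that at Akap13 (70.8%) and a 3-peak chain at Cdkl3 (92.6%). At Hsp90aa1, an HSP90 gene, 4 peaks on chr12:110681241-110693355 covered 8365 of 12115 bp (69.0%) and scored 133.95, 1667.44, 193.87 and 75.15. The second, 6412 bp wide, was both the highest and the widest of all chain peaks. At Hspa8, the constitutive HSP70 gene, 5 peaks covered 5406 of 5998 bp (90.1%) with scores of 62.79, 105.03, 502.25, 394.26 and 126.2. Hsph1, an HSP110 gene, had 10 peaks on chr5:149614913-149632211 that covered 11273 of 17299 bp (65.2%), with scores of 84.44, 158.82, 58.93, 153.82, 53.38, 54.92, 459.36, 131.91, 103.35 and 122.74. Each of the 3 genes also had an H3K4me3-sharing DLX3 peak at an end. Of the other nearest genes with an Hsp or Dnaj symbol, Hspa1b, an inducible HSP70 gene, had 4 peaks that covered 61.2% of the chain with a top of 377.21, while coverage was 28.9% at Dnajb12, 21.2% at Dnajb1 and 15.4% at Hspb8.

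High single scores were found elsewhere too. A chain of 8 peaks lay over Rab44, a Rab GTPase gene, and the neighbouring gene Cpne5. Its peaks scored 106.98, 133.52, 66.89, 657.29, 58.27, 61.88, 104.4 and 51.55. The last pair lay beyond the Rab44 span and was centred inside that of Cpne5. This chain began 21938 bp from Cdkn1a, the gene for the cell cycle inhibitor p21. A chain of 5 peaks that lay 9588 bp from Kmt2e, a gene of the KMT2 family, had a peak of 638.22. Plxna2, a semaphorin receptor gene, had one of 602.39 among 3. The top peaks of the chains nearest to Fgfbp1, an FGF carrier protein gene, and Dock8, a guanine nucleotide exchange factor gene, scored 459.8 and 457.02. The peak of 459.8 lay 33522 bp from the nearest coding start site in the promoter table. In each of these chains 1 peak stood far above the others. Dock8 held another chain of 3 peaks, up to 98.48.

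Among the other chains with many peaks, 8 peaks up to 149.59 lay 22983 bp from Med4, a Mediator subunit gene. Htra1, a secreted protease gene, had 7 up to 284.37. Dtx2, a Deltex ubiquitin ligase gene, had 6 up to 273.59.

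DLX3 peaks that do share H3K4me3 also formed chains. By the same linking rule 286 chains held 1053 of the 7615 (13.8%), the largest with 13 peaks, and their median length was 9980.5 bp against 12749 bp for the unmarked chains.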

How the data were processed

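ChIP-seq libraries of DLX3 and H3K4me3, 1 each, came with 1 deposited peak list per library, in which the authors give a score for every peak. Bowtie 1.1.2, MACS 1.4.2, HOMER and the build mm10 are named in the submitters' processing notes. Their roles and settings are not given in the sources. Both lists carry IgG in their file names, which points to IgG as the control of the calls, though no label states it. Scores start at 50.01 in the DLX3 list; their form is that of the MACS score, which grows with depth and width, and depth is unknown.

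Peaks were compared with Python 3.11.15, pandas 2.3.3 and numpy 2.4.6, counting positions from 1, with a minimum overlap of 1 bp. Scripts were tested on simulated peaks. Genes came from the RefSeq table of GRCm38.p6 (spans without strand), on chromosomes 1 to 19, X and Y. The nearest gene is the coding span closest to the chain centre. Il36a, Il36b and Il36g matched no gene. No genome sequence was used, so motifs in peaks were not searched. Chromosome 18 has no window in the promoter table used here.

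Members and lists were chosen with earlier results of these data known, so no test is given. Named genes are those nearest to the 20 chains with the most peaks, to the 10 with the highest scores and to 3 or more chains, up to 4 per list by the number of peaks in their chain, and Trp63 and Dlx3. Some genes that the rule names are not reported here. Alternatives changed the linking distance, the chain size, the overlap, the score threshold, the annotation and the gene-end window.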

Additional observations from a re-analysis of the deposited data

How the results depend on the processing

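With centres at most 5 kb apart, the chains fell from 527 to 204, their share of unmarked peaks from 18.1% to 6.65%, and the median score was 88.66. At 20 kb the share was 27.1%, and with 12500 bp between facing edges it was 18.9%. Requiring 4 peaks left 185 chains and 8.32%. With only DLX3 peaks at or above the median score there were 114 chains (8.63% of unmarked peaks), 36.8% of them centred in a coding span against 46.3%, and the median score was 129.49. With only H3K4me3 peaks at or above their median score the share in chains was 21.8%, and H3K4me3 stood at an end of 61.7% of nearest genes in place of 84.3%, beside 40.5% of all coding genes. A 5 kb window gave 87.7% (all coding genes 64.1%). The window at start sites, chosen after seeing the data, gave 88.7%. With every annotated gene, noncoding ones included, 59.6% of chains were centred in a span. The other 28 values moved by less than their intervals, or, for numbers of chains, stayed within 1.5 times. No paired analysis was possible because each antibody has 1 library. Neither between-animal spread nor depth can be read from these lists.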

Other observations

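Of the noncoding genes, Mir6931 is a microRNA gene whose hairpin (chr11:102999848-102999921, minus strand, GRCm38.p6) lay within a chain peak, in a chain of 4 peaks nearest to Dcakd. Its mature sequences are given from RefSeq, 5′ to 3′, with the seed in capitals.
miR-6931-5p: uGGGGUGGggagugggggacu
miR-6931-3p: cCCAACCUcuucauaccccag

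The hairpins of Mir7681, Mir6962 and Mir1941 lay between the peaks of chains nearest to Hecw2, Acvr1b and Krt80, at 1310, 1837 and 2523 bp from a chain peak. No expression was measured for any of them.

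Of the 3 chains left out at chromosome starts, 2 reached higher scores than any chain kept. A chain of 7 peaks on chromosome 4 (chr4:3163559-3182726) reached 2509.82, one of 4 on chromosome 6 (chr6:3132258-3141960) reached 1472.43, and one of 3 on chromosome 18 reached 2951.85, against 1667.44 for the highest chain peak kept.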
